A study of Mus musculus with 6 samples.

Results

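Gbp2, Gbp3, Gbp4, Gbp5, Gbp7, Irgm1, Igtp and Iigp1 are 8 genes that encode GTPases induced by interferon-gamma. They were chosen by name, as a set known to respond to this cytokine, and all 8 of 8 were present among the 19449 genes of the single-cell table and in the bulk table. The single-cell data were 4 libraries of CD45+ cells sorted from mouse spinal cord during adoptive transfer EAE, a model of multiple sclerosis in which myelin-reactive Th17-polarised CD4+ T cells are injected into recipients. Per the study's methods the recipients were wild-type C57BL/6 mice, and donor T cells, reactive to MOG35-55, routinely came from CD45.1 congenic mice and were polarised with IL-23. Young recipients were 8 to 12 weeks old and middle-aged recipients 40 to 44 weeks old, and cells were taken on day 6 or day 10 after transfer from 4 pooled spinal cords per library. The bulk data were 2 RNA-Seq libraries of microglia from the spinal cords of naive, untreated mice, 1 young and 1 middle-aged, sorted as CD45int CD11b+ cells. There was 1 library per age and day and 1 bulk library per age, so intervals on single values covered counting error only, and mouse-to-mouse spread was not measured.

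Both families belong to the cell-autonomous defence that interferon-gamma switches on through its receptor, the kinases Jak1 and Jak2 and transcription factors such as Irf1. The guanylate-binding proteins (Gbp2, Gbp3, Gbp4, Gbp5, Gbp7) assemble on the membranes of vacuoles and of microbes inside the cell, and Gbp5 also promotes inflammasome assembly. The immunity-related GTPases act in pairs of opposite kind, with Iigp1 (Irga6) as an effector that coats pathogen vacuoles and Irgm1 and Igtp (Irgm3) as regulators that keep effectors off the membranes of the host. In the inflamed central nervous system such genes mark cells, microglia among them, that have received an interferon signal.

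The promoters are shown because the 8 genes are grouped by a shared inducer. RefSeq promoter windows on GRCm38.p6, each with 250 bases before and 50 after an annotated start, were found for 6 of the 8 genes in 7 windows, and none was found for Gbp4 or Iigp1. Both strands were searched for the core of the interferon-stimulated response element, GAAA repeated after any 2 bases (TTTC on the other strand), and for the gamma-activated site, TTCNNNGAA, which is its own reverse complement. The response element core was present in a window of all 6 genes, against 3.44% of the 32851 windows in the table, and the gamma-activated site was present for 3 genes (Gbp5, Gbp7 and Igtp), against 8.30%. Stretches are written 5′ to 3′ on the strand of the gene with both motifs in capitals. For Gbp3, Gbp5, Gbp7 and Igtp they run from 170 bases before the RefSeq start to the next exon annotated by GENCODE or to the start itself, and for Gbp2 and Irgm1, whose matches lie in an annotated first exon, only 30 bases around them are given.
Gbp2 (chr3:142620594-142620623, + strand): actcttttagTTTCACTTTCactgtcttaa
Gbp3 (chr3:142559874-142560025, + strand): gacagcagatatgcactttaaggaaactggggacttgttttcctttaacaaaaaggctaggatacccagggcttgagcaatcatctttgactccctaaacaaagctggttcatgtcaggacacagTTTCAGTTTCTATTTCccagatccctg
Gbp5 (chr3:142496764-142496899, + strand): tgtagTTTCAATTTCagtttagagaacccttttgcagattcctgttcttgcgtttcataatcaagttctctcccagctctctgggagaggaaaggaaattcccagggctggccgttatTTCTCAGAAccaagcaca
Gbp7 (chr3:142530166-142530335, + strand): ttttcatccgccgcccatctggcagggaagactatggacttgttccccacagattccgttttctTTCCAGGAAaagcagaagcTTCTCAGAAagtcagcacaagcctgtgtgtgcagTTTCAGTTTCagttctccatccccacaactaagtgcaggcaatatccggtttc
Irgm1 (chr11:48871428-48871457, - strand): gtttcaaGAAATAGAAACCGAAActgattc
Igtp (chr11:58199386-58199555, + strand): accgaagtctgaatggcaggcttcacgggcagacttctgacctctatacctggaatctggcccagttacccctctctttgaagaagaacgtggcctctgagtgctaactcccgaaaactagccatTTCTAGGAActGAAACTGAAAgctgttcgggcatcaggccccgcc

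Of the 8 response element cores found, the pair in Gbp3 and the pair in Irgm1 overlap each other. A second gamma-activated site of Gbp5 lies before the stretch given. Gbp2, Gbp3, Gbp5 and Gbp7 lie on the + strand of chromosome 3, at 142620602-142638008, 142560026-142573209, 142493978-142522344 and 142530342-142550149 (GRCm38). The Gbp5 stretch lies between the first and last base of the gene in that annotation, and the Gbp3, Gbp7 and Igtp stretches end just before the gene's first base. Gbp4 lies on the - strand of chromosome 5 at 105115767-105139586, and Irgm1 and Igtp lie on chromosome 11 at 48861968-48871683 and 58199556-58207591. These matches describe the windows and were not tied to any value in these data.

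The libraries held 8315 to 10026 cells, 57337626 to 69859331 UMIs (unique molecular identifiers, each counted once per RNA molecule) and a median of 4704.5 to 6196 UMIs per cell. Of 37903 distinct cell barcodes 154 were found in 2 or more libraries. Cells carried the cluster number deposited with them. Cluster 10 was microglia-like by its markers (Sparc, Fcrls and Sall1 among its leading genes). Cluster 8 also scored highest for microglia markers, but none of them led it and its median UMI count was as low as 0.332 of that of its library, so it was left unnamed. Clusters 1 and 5 were monocyte/macrophage-like, cluster 5 by its score alone with none of the markers among its 10 leading genes, 2 T cell-like, 3 and 6 neutrophil-like, 4 B cell-like, 7 dendritic cell-like and 9 NK cell-like. Cluster 0, led by Rab15, Ifit1bl2 and Il1f9, had no marker of any list among its leading genes and was left unnamed. Levels are UMIs per 1000000 UMIs of the cluster and library (CPM), from sums over cells, and are given for clusters with 50 or more cells in a library. They do not scale with transcript length. Levels of different genes were ranked only in the bulk data, after division by exon length. A ratio of 2 genes is read only across clusters and libraries.

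Over all cells the 8 GTPases took 4293 CPM in young mice and 4627 CPM in middle-aged mice on day 6, and 1253 and 1252 CPM on day 10. On day 6 the sum was highest in cluster 0, at 10142 CPM in young mice and 10376 in middle-aged mice, and lowest in the B cell-like cluster 4, at 456 and 402 CPM. The macrophage-like cluster 1 held 5275 and 3989 CPM, the T cell-like cluster 2 held 1156 and 990 CPM, and the microglia-like cluster 10 held 2850 and 4529 CPM. On day 10 cluster 0 was again highest, at 5064 and 4890 CPM, and among clusters with 50 cells in every library the microglia-like cluster 10 came next, at 2810 and 1865 CPM. The 11 neutrophil markers of cluster 0 summed to 46146, 38635, 51724 and 46592 CPM in young day 6, middle-aged day 6, young day 10 and middle-aged day 10. S100a9 alone was at 26440, 21734, 25219 and 22521 CPM. The 9 monocyte/macrophage markers summed to 3692, 2934, 6238 and 6405 CPM. Per the study's methods the clusters were formed on its most variable genes, and whether these 8 were among them was not checked. Differences between clusters are therefore a description.

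**Figure D1:**
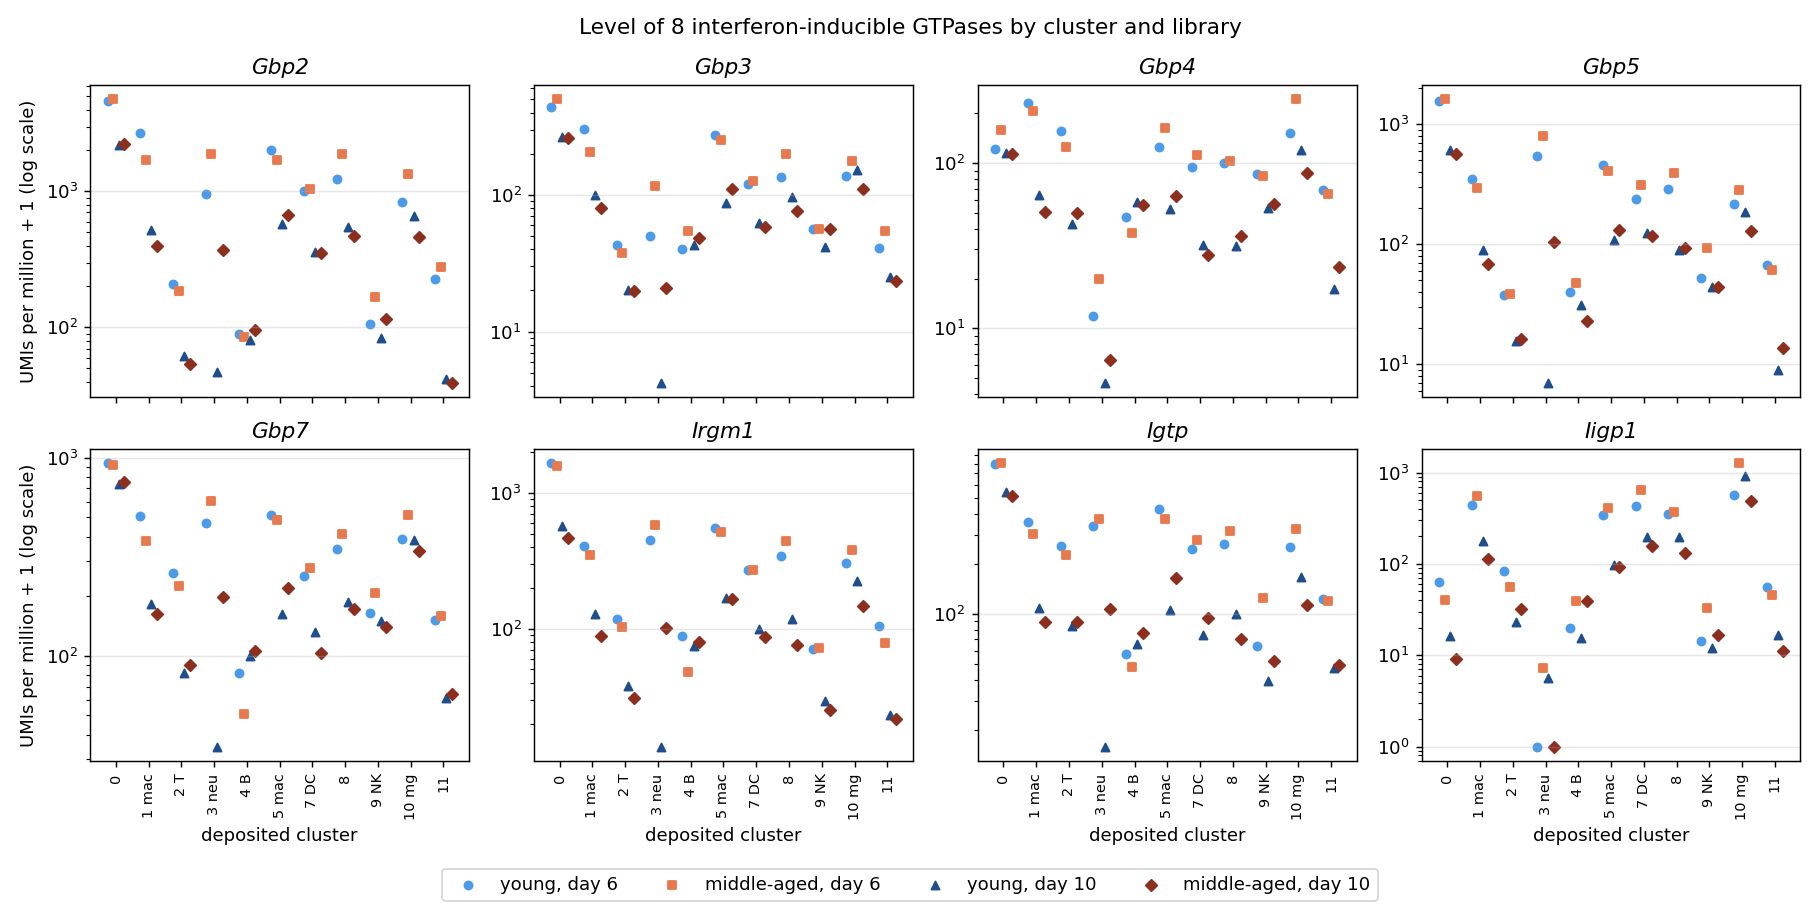
Level of each GTPase (CPM plus 1, log scale) in each deposited cluster with 50 or more cells in all 4 libraries (mac, monocyte/macrophage-like; neu, neutrophil-like; DC, dendritic cell-like; mg, microglia-like). Each point is 1 library. Iigp1 stands highest in cluster 10 in all 4 libraries, and Gbp2, Gbp3, Gbp5, Gbp7, Irgm1 and Igtp stand highest in cluster 0.

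Gbp2 reached 4590 CPM in young mice and 4773 CPM in middle-aged mice in cluster 0 on day 6, and 2210 and 2227 CPM on day 10. Irgm1 was there at 1657, 1568, 571 and 461 CPM in young day 6, middle-aged day 6, young day 10 and middle-aged day 10, and Gbp5 at 1541, 1612, 611 and 560 CPM. In all 3 genes both libraries of day 6 were above both of day 10. Gbp7 (937, 920, 738 and 753 CPM), Igtp (800, 806, 543 and 512 CPM) and Gbp3 (434, 501, 263 and 258 CPM) were also highest in cluster 0. Gbp4 had no fixed place, with its highest level in cluster 1 in young day 6 (228 CPM), in cluster 10 in middle-aged day 6 (242 CPM) and young day 10 (118 CPM), and in cluster 0 in middle-aged day 10 (112 CPM).

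Iigp1, which lies on chromosome 18, was distributed differently. It was highest in the microglia-like cluster 10 in all 4 libraries, at 569 CPM in young day 6, 1265 CPM in middle-aged day 6, 925 CPM in young day 10 and 490 CPM in middle-aged day 10. Next came cluster 1 in young day 6 (437 CPM) and cluster 8 in young day 10 (194 CPM). In middle-aged mice the dendritic cell-like cluster 7 came next, at 646 CPM on day 6 and 155 CPM on day 10. In cluster 0, where 6 of the other members peaked, it was at 62.4, 39.7, 15.2 and 8.01 CPM, and in the neutrophil-like cluster 3 it had 0 UMIs in 2 of the 4 libraries. Within a library the ratio of the genes needs no scaling. In cluster 10 there were 0.684 Iigp1 UMIs per Gbp2 UMI in young day 6, 0.940 in middle-aged day 6, 1.40 in young day 10 and 1.07 in middle-aged day 10. In cluster 0 the same ratio ran from 0.00360 to 0.0136, and in the macrophage-like cluster 1 from 0.163 to 0.344.

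**Figure D2:**
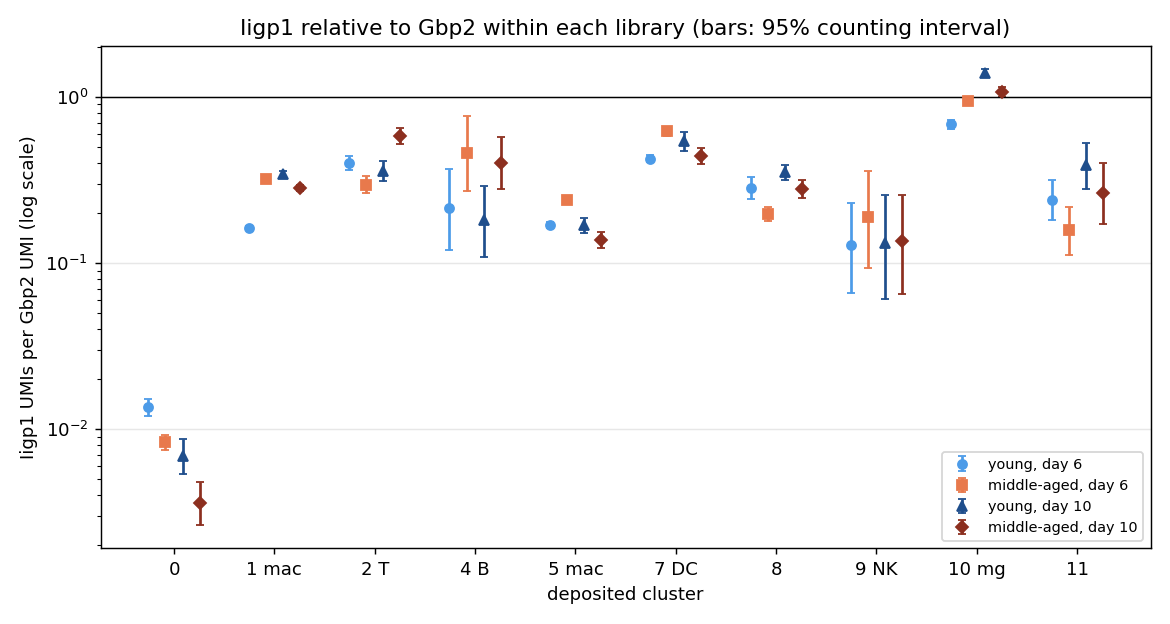
Iigp1 UMIs per Gbp2 UMI (log scale) in each cluster with 50 or more cells in all 4 libraries, cluster 3 left out for its 0 UMIs. Points are libraries and bars are 95% counting intervals. Cluster 10 lies between 0.684 and 1.40 and cluster 0 between 0.00360 and 0.0136.

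Over the 52 sums of a cluster in a library with 50 or more cells, Gbp2 and Gbp5 had the most similar levels (Pearson r of log2(CPM + 1) 0.96), and the pairs among Gbp2, Gbp5, Gbp7, Irgm1 and Igtp all lay between 0.87 and 0.96. Iigp1 correlated less with each of them, from 0.30 with Gbp5 to 0.41 with Gbp2, and most with Gbp4 (0.72). Over all 10674 genes compared, the genes outside the set with levels most like the summed CPM of the 8 were Cd274, which encodes the checkpoint ligand PD-L1 (0.95), Irgm2, another immunity-related GTPase (0.93), Trafd1 (0.93), Zbp1 (0.93) and Dtx3l (0.92), followed by Ifi204, Nampt, Parp14, Cxcl10 and Ifi47 (0.90 to 0.91). The gene most like Iigp1 was Gm4951, an immunity-related GTPase gene (0.91). The sums share libraries and clusters, so these values are a description.

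The ages were compared in the clusters with the highest microglia scores because the study asked how aged microglia respond in EAE. On day 6 all 8 GTPases were higher in the microglia-like cluster 10 of middle-aged mice, and on day 10 all 8 were lower. Summed, the 8 genes were at 2850 CPM in young mice and 4529 CPM in middle-aged mice on day 6 (1.59-fold, log2 ratio 0.67, 95% counting interval 0.63 to 0.71). On day 10 they were at 2810 and 1865 CPM (log2 ratio -0.59, interval -0.64 to -0.54). The sums rested on 432 and 216 cells on day 6 and on 362 and 334 cells on day 10.

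Iigp1 had the largest ratio on both days. It was 2.22-fold higher in middle-aged mice on day 6 (1957 against 3013 UMIs, 569 against 1265 CPM, log2 ratio 1.15, interval 1.07 to 1.23) and 1.89-fold lower on day 10 (3250 against 1585 UMIs, log2 ratio -0.92, interval -1.0 to -0.83). Gbp2 went from 833 to 1345 CPM with age on day 6 (log2 ratio 0.69) and from 661 to 459 CPM on day 10 (log2 ratio -0.53). Gbp4 went from 150 to 242 CPM (log2 ratio 0.69) and from 118 to 85.6 CPM (log2 ratio -0.46). The other guanylate-binding proteins showed the same turn. Gbp3 was at 137 and 177 CPM on day 6 and at 151 and 110 CPM on day 10, Gbp5 at 217 and 282 CPM and then at 183 and 127 CPM, and Gbp7 at 387 and 515 CPM and then at 384 and 336 CPM, in young and middle-aged mice. The regulators Irgm1 (305 and 382 CPM, then 223 and 146 CPM) and Igtp (253 and 322 CPM, then 165 and 113 CPM) were also higher in middle-aged mice on day 6 and lower on day 10.

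All 8 counting intervals lay above 0 on day 6, against 18% of all genes with 100 or more UMIs, and all 8 lay below 0 on day 10, against 9.83%. Of the 6660 other genes with 100 or more UMIs in cluster 10 on day 6, 45.0% were higher in middle-aged mice, with a median log2 ratio of -0.04, and the median of the 8 GTPases was 0.40. On day 10, 50.6% of 6704 other genes were lower, with a median of -0.00, and the median of the GTPases was -0.52. A difference of 2-fold or more was rarer. Iigp1 was the 1 member that was 2-fold higher on day 6, against 1.5% of all genes, and no member was 2-fold lower on day 10, against 0.328% of all genes.

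**Figure D3:**
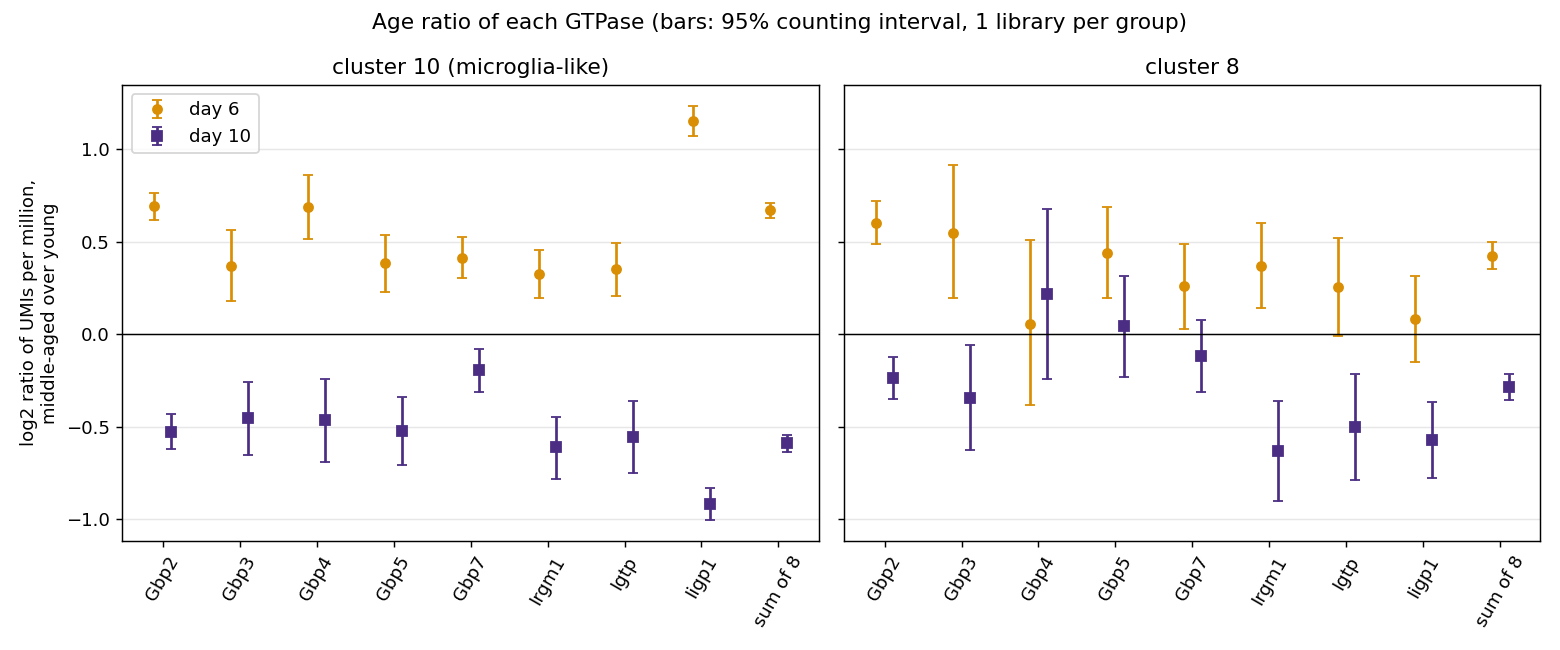
Log2 ratio of CPM, middle-aged over young, for each GTPase and their sum in cluster 10 and cluster 8 on day 6 and day 10. Points are ratios of 2 libraries and bars are 95% counting intervals. In cluster 10 all day 6 points lie above 0 and all day 10 points below 0.

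In cluster 8, 249 and 364 cells on day 6 and 668 and 776 cells on day 10, the sum was at 3054 CPM in young mice and 4096 CPM in middle-aged mice on day 6 (log2 ratio 0.42, interval 0.35 to 0.50) and at 1360 and 1115 CPM on day 10 (log2 ratio -0.29, interval -0.36 to -0.21). All 8 members were higher in middle-aged mice on day 6, against 47.0% of other genes, and 5 of them had an interval above 0, against 15.5% of all genes. On day 10, 6 were lower, against 55.5% of other genes, and 5 had an interval below 0, against 13%. Gbp2 (log2 ratio 0.60 and then -0.24), Gbp3 (0.55 and -0.34) and Irgm1 (0.37 and -0.63) had intervals on opposite sides of 0 on the 2 days. Iigp1 was at 350.2 and 370.5 CPM on day 6, where the interval of its ratio spanned 0, and at 194 and 131 CPM on day 10 (log2 ratio -0.57). No member was 2-fold higher on day 6, against 2.2% of all genes, or 2-fold lower on day 10, against 0.589%.

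Markers of other cells moved with these groups. In cluster 10 the 11 neutrophil markers, none of them at 0 in all libraries, summed to 4555 CPM in young mice and 1341 CPM in middle-aged mice on day 6 and to 6035 and 3751 CPM on day 10. The 9 microglia markers summed to 10180 and 6374 CPM on day 6 and to 6691 and 6582 CPM on day 10, and the 9 monocyte/macrophage markers to 2943 and 3375 CPM and then to 4214 and 5228 CPM. In cluster 8 the neutrophil markers summed to 7124, 10425, 9019 and 3681 CPM in young day 6, middle-aged day 6, young day 10 and middle-aged day 10, the microglia markers to 6035, 3941, 2648 and 3210 CPM and the monocyte/macrophage markers to 1662, 2396, 16632 and 18937 CPM. Without cells that held 2 or more UMIs of T, B or NK cell markers or 5 or more of neutrophil markers, the log2 age ratio of the sum in cluster 10 was 0.76 on day 6 and -0.75 on day 10, and in cluster 8 it was 0.28 and -0.41. In cluster 10 this left 368 of 432 young and 156 of 216 middle-aged cells on day 6, and 141 of 362 young and 241 of 334 middle-aged cells on day 10. The part of the microglia and macrophage markers in the ratios was not tested.

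The share of cells with a UMI was compared after thinning each cell of cluster 10 to 2000 UMIs, which left out 2 to 21 cells of a library. Iigp1 was found in 27.3% of cells in young day 6 (exact 95% binomial interval 23.0 to 31.8%), 72.4% in middle-aged day 6 (65.9 to 78.3%), 69.2% in young day 10 (64.1 to 74.0%) and 43.6% in middle-aged day 10 (38.2 to 49.2%). Without thinning the shares were 39.8%, 89.8%, 89.5% and 68.6%. In the B cell-like cluster 4, which had the lowest sum on day 6, the share was 1.8 to 5.4% when thinned to the same depth. Gbp2 was found in 53.5%, 82.7%, 62.1% and 52.1% of cells of cluster 10, and Gbp4 in 16.8%, 38.3%, 22.2% and 15.5%. At least 3 of the 8 genes were found together in 45.5% of cells in young day 6, 85.0% in middle-aged day 6, 64.1% in young day 10 and 43.0% in middle-aged day 10. On day 6 all 8 shares were higher in middle-aged mice, and for Gbp3, Irgm1 and Igtp the intervals overlapped. The intervals cover the sampling of cells only. Shares were not computed for other genes, so how often other genes differ as much is not known.

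**Figure D4:**
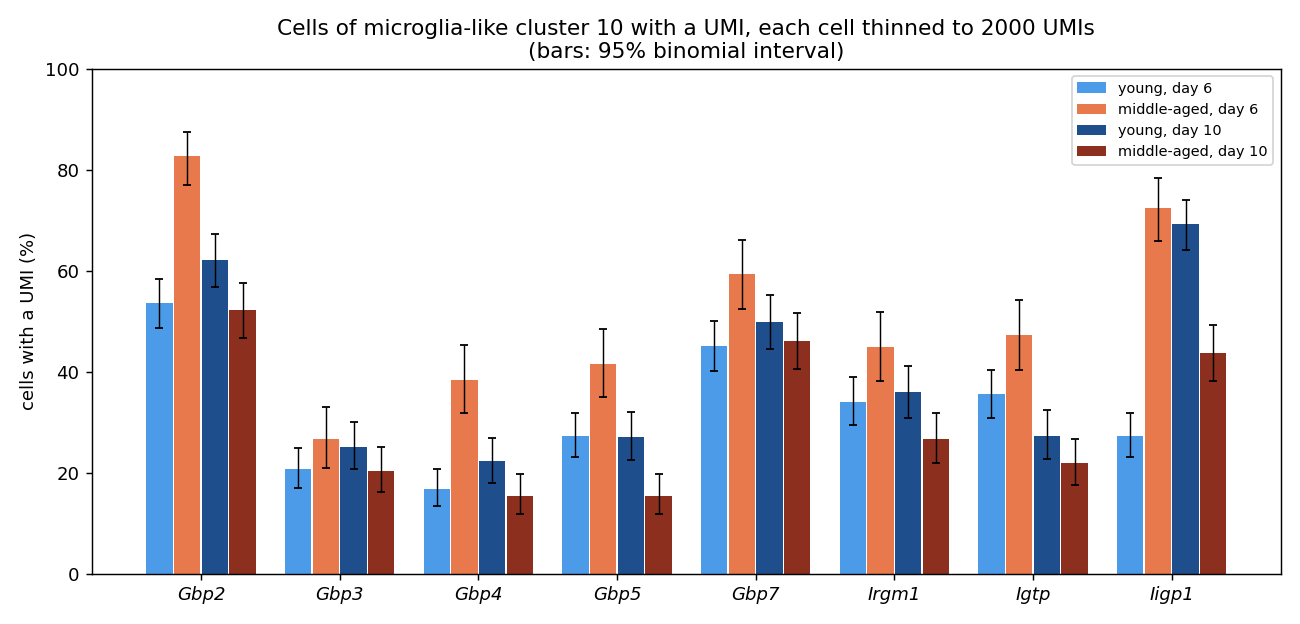
Percentage of cells of the microglia-like cluster 10 with a UMI of each GTPase after thinning each cell to 2000 UMIs. Bars are libraries and error bars are 95% binomial intervals. For Iigp1 the bars of middle-aged day 6 (72.4%) and young day 10 (69.2%) stand above those of young day 6 (27.3%) and middle-aged day 10 (43.6%).

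The UMIs were unevenly spread among cells. In young day 6 the 22 cells of cluster 10 with the most Iigp1 (5% of cells) held 46.3% of its UMIs and the 22 with the most Gbp2 held 35.3%, while in middle-aged day 6 the corresponding 11 cells held 21.5% and 17.4%. In young day 10 the corresponding 18 cells held 22.5% of the Iigp1 UMIs, and in middle-aged day 10 the 17 cells held 28.3%. Without the 5% of cells with the most UMIs of the 8 genes together, the log2 age ratio of the sum was 0.83 on day 6 and -0.66 on day 10.

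In the other clusters the age ratios varied in size and direction. In the macrophage-like cluster 1, 7 members were lower in middle-aged mice on day 6 (sum 5275 against 3989 CPM, log2 ratio -0.40), with Iigp1 the exception at 437 and 546 CPM (log2 ratio 0.32). There 66.8% of other genes were also lower, with a median log2 ratio of -0.13. All 8 were lower on day 10 (1364 against 1040 CPM, log2 ratio -0.39), against 47.6% of other genes. In the T cell-like cluster 2 the sum was at 1156 and 990 CPM on day 6 and at 358 and 375 CPM on day 10. In cluster 0 the log2 age ratio was 0.03 on day 6 and -0.05 on day 10. In the neutrophil-like cluster 3, with 172 to 514 cells per library, the sum was at 2803 and 4357 CPM on day 6 (log2 ratio 0.64) and at 125 and 899 CPM on day 10 (log2 ratio 2.85), so that it was higher in middle-aged mice on both days. For the NK cell-like cluster 9 the log2 age ratio of the sum was 0.46 on day 6 and 0.16 on day 10, and for the dendritic cell-like cluster 7 it was 0.20 and -0.11.

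Age and day were then fitted together on the 4 sums of a cluster with edgeR's quasi-likelihood test, which leaves 1 residual degree of freedom and takes the ages as repeats of each other for the day term and the days for the age term. No member was called for age at an adjusted p below 0.05 in cluster 10, 8, 2 or 1. The share of all genes called for age was 0.142%, 0.0956%, 0.0616% and 0.0982% in these clusters. At an unadjusted p below 0.05 there was 1 member in cluster 1 (Gbp2) and 0 in the other 3 clusters, and DESeq2 called 0 members for age in all 4. In cluster 10 the age term averages 2 days of opposite sign, and its log2 fold changes for the 8 members ran from -0.11 to 0.15 with standard errors of 0.24 to 0.43.

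For day, all 8 members fell from day 6 to day 10 in the macrophage-like cluster 1, where 15.2% of all genes were called lower, in the T cell-like cluster 2 (3.25% called lower) and in cluster 8 (6.9% called lower). In the microglia-like cluster 10 none of the 8 was called, against 3.46% of genes called lower. In cluster 1 the log2 fold change was largest for Gbp2 (-2.41 ± 0.21 SE, edgeR adjusted p = 4.1e-06), followed by Gbp5 (-2.23 ± 0.21, edgeR adjusted p = 6.5e-06), Gbp4 (-2.12), Irgm1 (-1.99), Iigp1 (-1.96), Igtp (-1.92), Gbp3 (-1.66) and Gbp7 (-1.53). In young mice Gbp2 there went from 2687 to 520 CPM and in middle-aged mice from 1715 to 397 CPM, and the 2 days did not overlap. In cluster 2 the fold changes ran from -0.93 for Gbp3 to -1.67 for Gbp2 (edgeR adjusted p = 7.6e-06), and in cluster 8 from -0.70 for Gbp3 (edgeR adjusted p = 0.044) to -1.77 for Irgm1 (edgeR adjusted p = 1.4e-05). With DESeq2, 4 of the 8 members were called in cluster 8. Between the days the monocyte/macrophage markers of cluster 8 went from 1662 to 16632 CPM in young mice and from 2396 to 18937 CPM in middle-aged mice, while its microglia markers went from 6035 to 2648 CPM and from 3941 to 3210 CPM, and their part in the fall of the 8 members was not tested.

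In cluster 10 the fitted day changes were smaller and their errors larger. Igtp was nearest to the threshold (-0.91 ± 0.26 SE, edgeR adjusted p = 0.053), and Irgm1 (-0.77 ± 0.27) and Gbp4 (-0.77 ± 0.27) both had an adjusted p of 0.11 in edgeR. Iigp1 was at -0.18 ± 0.43 with an edgeR adjusted p of 0.86. The ages differed in this cluster. In young mice the sum stood at 2850 CPM on day 6 and 2810 CPM on day 10 (log2 ratio -0.02, interval -0.06 to 0.02), and in middle-aged mice at 4529 and 1865 CPM (log2 ratio -1.28, interval -1.33 to -1.23). Iigp1 went from 569 to 925 CPM in young mice (log2 ratio 0.70) and from 1265 to 490 CPM in middle-aged mice (log2 ratio -1.37). The median of the other genes was -0.18 in young and -0.12 in middle-aged mice, so the young sum lay above its median and the middle-aged sum below. Gbp3 (0.14) and Gbp7 (-0.01) in young mice had intervals that spanned 0, and the remaining 5 members were lower on day 10, Igtp by the most (-0.61). Of 7043 other genes 65.6% were lower on day 10 in young mice. Without the middle-aged day 6 library the fitted day changes of Gbp3, Gbp7 and Iigp1 were 0.32, 0.17 and 0.88, and without the middle-aged day 10 library 0.31, 0.16 and 0.87. Either fit takes its day change from the young libraries alone, so these values repeat the young ratios under the scaling of the fit. The difference between the ages has no replicate and was not tested.

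**Figure D5:**
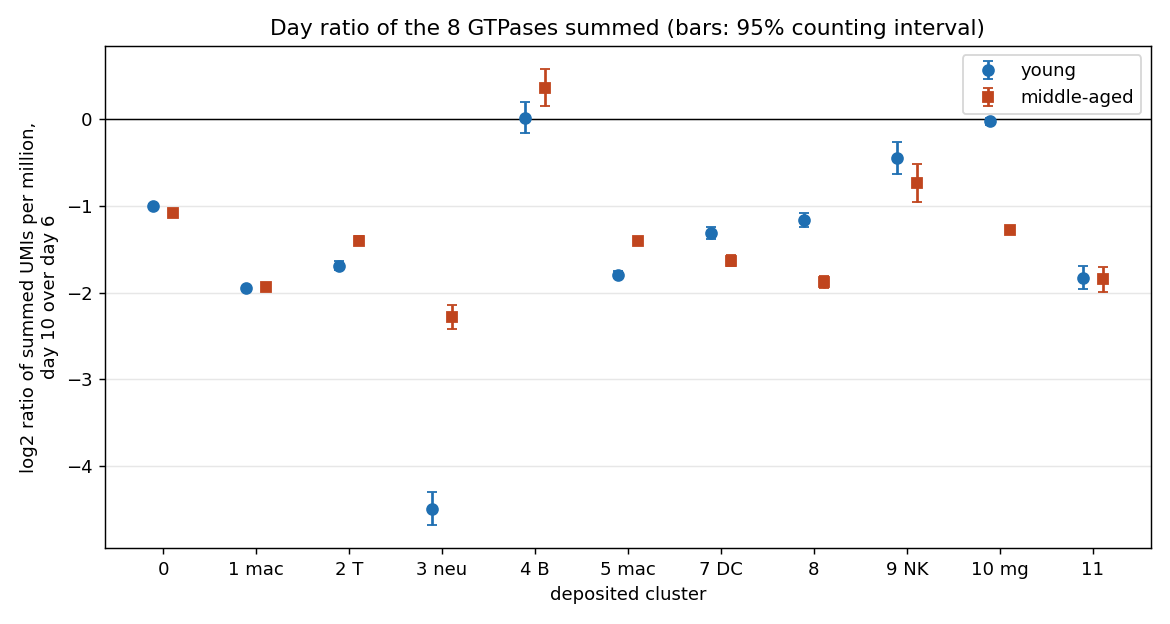
Log2 ratio of the summed CPM of the 8 GTPases, day 10 over day 6, in young and middle-aged mice for each cluster with 50 or more cells in all 4 libraries. Points are ratios of 2 libraries and bars are 95% counting intervals. Young cluster 10 (-0.02) lies near 0 with B cell-like cluster 4, while middle-aged cluster 10 lies at -1.28.

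In the other clusters with 50 cells in every library, cluster 4 excepted, the sum was lower on day 10 in both ages. The log2 day ratio was -1.0 in young and -1.09 in middle-aged mice in cluster 0, where the median of other genes was 0.58 and 0.68, -1.80 and -1.40 in cluster 5, -1.31 and -1.63 in the dendritic cell-like cluster 7 and -4.49 and -2.28 in the neutrophil-like cluster 3. In the B cell-like cluster 4 it was 0.02 (interval -0.16 to 0.20) in young mice and 0.36 (0.15 to 0.58) in middle-aged mice.

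The other genes of the pathway gave the setting of these values. Ifng, the cytokine itself, was at 441 CPM in young mice and 1500 CPM in middle-aged mice in the T cell-like cluster 2 on day 6 and at 559 and 361 CPM on day 10, and this cluster held 71.6 to 79.2% of the Ifng UMIs of a library. In cluster 10 it was at 0.839 to 4.55 CPM (2 to 16 UMIs). The order of the 4 libraries by Ifng in cluster 2 (middle-aged day 6, young day 10, young day 6, middle-aged day 10) was the order of Iigp1 and of Gbp3 in cluster 10, but not that of the other 6 members, and whether the levels are connected was not tested. In cluster 10 on day 6 Socs1, a feedback inhibitor of the pathway, was at 149 CPM in young mice and 206 CPM in middle-aged mice (log2 ratio 0.47), while the receptor chain Ifngr1 was at 271 and 160 CPM (-0.76) and Jak1 at 159 and 135 CPM (-0.24). The intervals of Ifngr2, Jak2 and Irf1 spanned 0. On day 10 Socs1 (-0.34) and Irf1 (-0.32) were lower in middle-aged mice.

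Lists of related genes went the same way as the GTPases in cluster 10 between the ages. On day 6, 8 of 10 other interferon-inducible GTPases with 50 or more UMIs were higher in middle-aged mice (median log2 ratio 0.30), with Gbp8 (1.40) and Gbp6 (1.22) highest and Gvin1 (-0.28) and Gm4070 (-0.10) lowest, and on day 10, 8 of 9 were lower (median -0.48). Of 11 other interferon-gamma targets 10 were higher on day 6 (median 0.68), with Nos2, inducible nitric oxide synthase (4.49, 13 against 203 UMIs), and Ciita, the regulator of MHC class II genes (1.54), highest and the Fc receptor gene Fcgr1 lower (-0.23). On day 10, 10 of 11 were lower (median -0.22). Of 14 type I interferon-stimulated genes 12 were higher on day 6 (median 0.52), with Ifi27l2a (1.36) and Oas1a (0.97) highest, and 12 were lower on day 10 (median -0.22), with Isg15 (-1.48) and Ifit3 (-1.01) lowest. No gene of these lists was called for age in cluster 10.

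Between the days the lists of cluster 10 differed in how many genes were called. In the fit 11 of 15 type I interferon-stimulated genes were called lower on day 10 (median log2 fold change -1.23), among them Isg15 and Rsad2, against 3.46% of all genes. Of 10 other GTPases 3 were called lower (Gm4070, Tgtp2 and Ifi47), and the median log2 fold change of the 10 was -0.68. Of 7 signalling genes Socs1 was called lower, and of 11 other interferon-gamma targets Ciita was called higher, against 3.18% of all genes called higher. In young mice Nos2 went from 3.78 to 25.0 CPM, Ciita from 16.3 to 93.3 CPM, Gbp8 from 25.6 to 81.7 CPM and Gbp6 from 58.8 to 139 CPM, the direction that Iigp1 took. Of the other GTPases 7 of 10 were lower on day 10 in young mice (median log2 ratio -0.52), near the 65.6% of 7043 other genes that were lower. Of the other interferon-gamma targets 7 of 11 were higher and 4 lower (median 0.26), against 34.4% of other genes that were higher. In cluster 1, 15 of 15 type I genes were called lower (median -3.19), as were 12 of 12 other GTPases (median -1.76) and 10 of 12 other interferon-gamma targets (median -1.54), beside a median of -1.97 for the 8 members. There 15.2% of all genes were called lower. In cluster 2, 14 of 15 type I genes (median -3.06) and 11 of 11 other GTPases (median -1.41) were called lower, against 3.25% of all genes. The median of the 8 members was -1.39.

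Before disease the 8 genes were expressed in microglia of both ages. In the bulk libraries of naive microglia, with 79373420 counts in young mice and 76293436 in middle-aged mice, the sum was at 240.3 and 226.5 CPM (log2 ratio -0.09, counting interval -0.11 to -0.06), and Ifng had 0 counts in both. Per kilobase of exon Igtp was highest (24.6 and 22.6 CPM per kb), followed by Gbp7 (12.2 and 10.5), Irgm1 (8.22 and 9.50), Gbp3 (6.58 and 6.25), Gbp2 (6.56 and 5.89) and Gbp5 (3.66 and 3.66), with Iigp1 (1.01 and 0.819) and Gbp4 (0.792 and 0.343) lowest. Iigp1 had 468 and 364 counts (log2 ratio -0.31). In such bulk samples fewer cells of a type and less RNA per cell cannot be told apart. The bulk reads and the 3′ UMIs are different scales and no fold was taken between them.

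Between the ages 6 members were lower, Irgm1 was higher and Gbp5 was at a log2 ratio of 0.00 in middle-aged naive microglia, with a median log2 ratio of -0.14 beside -0.01 for 14813 other genes. Of those other genes 7657 were lower and 7156 higher. Gbp4 was the 1 member past 2-fold, with 471 counts in young mice and 196 in middle-aged mice (log2 ratio -1.21, interval -1.46 to -0.96), against 6.92% of genes that were 2-fold lower. Irgm1 was higher in middle-aged mice (47.7 and 55.2 CPM, log2 ratio 0.21), and Gbp7 lower (68.8 and 58.7 CPM, log2 ratio -0.23). The 9 endothelial cell markers, all lower in middle-aged mice, summed to 706 CPM in young mice and 168 CPM in middle-aged mice, and their part in the Gbp4 difference was not tested. The 9 microglia markers summed to 31046 and 29171 CPM. Of 17 type I interferon-stimulated genes 16 were higher in middle-aged naive microglia (median log2 ratio 0.50), against 7156 of 14813 other genes. The other interferon-inducible GTPases were divided, with 5 higher and 6 lower of 11.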

How the data were processed

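For the single-cell libraries the deposited values are UMI counts per gene and cell. Per the labels and the study's methods they were made with Cell Ranger 3.1.0 on mm10, cells and genes were filtered in Seurat, and clusters were deposited per cell and kept as given. The deposited bulk values are read counts from featureCounts, not separated by strand. Both tables were used without change, and cells are not replicates. UMIs were summed by cluster and library, levels are CPM of these sums, and ratios carry exact conditional binomial 95% intervals, which cover counting error only. Sums in clusters 10, 8, 2 and 1 were fitted with age and day in edgeR 4.0.16 (quasi-likelihood, TMM, genes with 10 or more counts in 2 or more libraries, Benjamini-Hochberg over all genes, called below 0.05), tested on simulated data, with DESeq2 1.42.0 as an alternative. Shares of cells were thinned to 2000 UMIs, leaving out shallower cells. No doublet caller was run. Reads shared between near-identical family members could be split or dropped by the authors' counting, which touches Iigp1 and its relative Gm4951. All 8 members are named throughout, and of each other list the 2 largest rises and falls. The members and lists were chosen with earlier results of these data known. One gene of the signalling list is not reported here. The replicate number 1 of each label pairs no samples. Promoter sequences are from RefSeq (GRCm38.p6). Other settings tried were RLE size factors, no count filter, TMM factors, totals without mitochondrial and ribosomal protein genes or, in bulk, Gm26917, and several subsets of cells.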

Additional observations from a re-analysis of the deposited data

Results flagged for a closer look

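In clusters 10, 8, 7, 0, 2 and 5 the age difference of the summed 8 GTPases had opposite signs on day 6 and day 10. Its counting intervals were clear of 0 on both days, and this is what brought it here. Single members were flagged only in clusters 10 and 8. The sum had the same sign on both days in cluster 1 (-0.40 and -0.39), cluster 3 (0.64 and 2.85) and cluster 9 (0.46 and 0.16). The difference between the days rests on 1 library per age and day and was not tested. In the microglia-like cluster 10 the log2 age ratio of day 10 minus that of day 6 was -1.26 for the sum of the 8 genes. It was -2.07 for Iigp1, -1.22 for Gbp2, -1.15 for Gbp4, -0.94 for Irgm1, -0.91 for Igtp, -0.90 for Gbp5, -0.83 for Gbp3 and -0.61 for Gbp7. In cluster 8 it was -0.71 for the sum, -1.0 for Irgm1, -0.89 for Gbp3 and -0.84 for Gbp2. In the dendritic cell-like cluster 7 it was -0.32 for the sum and in cluster 0 it was -0.083, where both ratios were near 0. The sign was the other way in the T cell-like cluster 2 (0.29) and in the macrophage-like cluster 5 (0.39), where the sum was lower in middle-aged mice on day 6 and higher on day 10. The age ratio of Iigp1 also changed sign in cluster 1 (0.32, then -0.67), cluster 7 (0.59, then -0.32), cluster 2 (-0.58, then 0.50) and cluster 5 (0.26, then -0.07). It kept its sign in clusters 0, 4, 9 and 11.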

How the results depend on the processing

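No paired analysis was possible because each age and day has 1 library and no number ties libraries to each other. For age, 0 members were called in clusters 10, 8, 2 and 1 with RLE size factors, without a filter, with cells of 1000 or more UMIs and with DESeq2, and for day all 8 were called in clusters 1 and 2 under each of these. For day in cluster 10 the count was 0, but 1 with RLE size factors and 3 without a filter, and in cluster 8 it was 8, but 4 with DESeq2. The age ratio of the sum kept its sign in both clusters on both days under every alternative. On day 6 in cluster 10 it was 0.67, and 0.73 with TMM factors, 0.72 without mitochondrial and ribosomal protein genes in the total, 0.76 without cells with markers of other lineages, 0.93 as a mean over cells and 0.83 without the 5% of cells with the most member UMIs. On day 10 it was -0.59, and -0.75, -0.66 and -0.66 under the last 3 of these. In cluster 8 on day 6 it was 0.42, and 0.28 without cells with other markers and 0.55 without the top 5% of cells, and on day 10 it was -0.29, and -0.41 without cells with other markers and -0.19 as a mean over cells. Leaving out cells whose barcode is in another library, an alternative chosen after seeing the data, left the ratios within their intervals. The cause was not tested. Counts of all genes called moved more. For age they were 15, 8, 7 and 12 in clusters 10, 8, 2 and 1, and 16, 12, 16 and 4 with RLE size factors, 53, 41, 34 and 3 without a filter, 6, 14, 16 and 12 with deeper cells and 5, 2, 6 and 12 with DESeq2. For day they were 701, 1122, 820 and 3654, and 138, 248, 360 and 1923 with DESeq2, and 1201 in cluster 10 without a filter. With a library left out the fit has no residual degree of freedom and gives values only. The day change then comes from the age that keeps both days. The age change likewise comes from the day that keeps both ages. The values therefore come in near-equal pairs and repeat the single ratios, so they are no check on them. For day the values stayed below 0 for all members in clusters 8, 2 and 1. In cluster 10 they ran from -1.43 to 0.88, above 0 for Gbp3, Gbp7 and Iigp1 in young mice. For age in cluster 10 they ran from -0.92 to 1.20. In naive microglia the sum stayed within its interval under 3 alternatives.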
